A study of Mus musculus with 18 samples.

Results

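Matrix metalloproteinases are zinc-dependent proteases that cut collagens, laminins, fibronectin and other proteins of the extracellular matrix, and the tissue inhibitors of metalloproteinases (TIMPs) bind and block them. Most metalloproteinases are secreted as inactive precursors that another protease must cut. In the prostate they take part in ductal remodelling and in the breakdown of basement membrane around tumours, and much of their RNA comes from stromal cells. Measured here were 6 metalloproteinase genes (the gelatinases Mmp2 and Mmp9, the stromelysin Mmp3, the matrilysin Mmp7, the collagenase Mmp13 and the membrane-type enzyme Mmp14) and the 4 inhibitor genes Timp1 to Timp4. They were chosen by name, with earlier results of these data known. All 10 had a row among the 55469 gene IDs of the tables.

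The RNA came from the prostate (ventral plus lateral lobes) of 18 males on the background that the labels write as C56NL/6N. Every mouse carried TRAMP +/-, a transgene that expresses SV40 T antigens from the probasin promoter in prostate epithelium and drives prostate tumours. WT-TRAMP mice had wild-type ELAC2+/+, the enzyme that trims the 3′ ends of precursor tRNAs. KO-TRAMP mice (ELAC2-/- in the labels) lost exon 8 of Elac2 through Pb-Cre, which acts in prostate epithelium, so stromal cells should keep the gene, and A537T-TRAMP mice were homozygous for the ELAC2 A537T change in the whole body. There were 3 mice per line at 10 weeks and 3 per line at 30 weeks of age. The question was how either Elac2 change alters this protease system in the TRAMP prostate at each age.

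Each line was compared with WT-TRAMP of its age inside 1 table of 6 libraries, because the tables were normalized separately. At each age the KO-TRAMP and A537T-TRAMP comparisons share the same 3 WT-TRAMP libraries. The libraries carry header numbers: the 10-week WT-TRAMP mice are numbers 1 to 3, the A537T-TRAMP mice 4 to 6, the KO-TRAMP mice 7 to 9. Of the 30-week mice, KO-TRAMP are numbers 16 to 18, WT-TRAMP 10 to 12, and the remaining 13 to 15 are A537T-TRAMP. Depth was 9380174 to 14830104 recovered reads. Values are normalized counts (reads divided by a size factor per library), and a fold change is on the log2(normalized count + 1) scale with its standard error (SE). The p-values measure only the spread between these libraries. Elac2 itself had 249 to 267 normalized counts in KO-TRAMP and 251 to 320 in WT-TRAMP at 30 weeks (log2 fold change −0.19, SE 0.14, adjusted p = 0.522), and 254 to 301 against 289 to 359 at 10 weeks (−0.22, SE 0.14, adjusted p = 0.808). A gene-level count does not separate exon 8 from the rest, so it checks neither the deletion nor the A537T change. The tissue label was checked against luminal epithelium markers (the keratins Krt8 and Krt18 and the secretory gene Pbsn among them), all 10 of which were above 0 in every library.

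The libraries also differed in other tissue. At 10 weeks seminal vesicle markers had summed normalized counts of 21 to 54 in WT-TRAMP beside KO-TRAMP and 19.3 to 49.5 beside A537T-TRAMP. Each mutant library of that age was higher than every WT-TRAMP library. KO-TRAMP ran from 99.8 to 180184 (library 9). A537T-TRAMP started at 5024.7 and reached 136455 in library 6 and 1156800 in library 5. At 30 weeks the sums ran from 12.5 to 496917 in WT-TRAMP, from 75.8 to 30919.5 in KO-TRAMP and from 35.8 to 626890 in A537T-TRAMP. The protocol says that seminal vesicles were removed. In library 5 the luminal sum was 27372, against 241457 to 321716 in WT-TRAMP. Neuroendocrine markers were highest at 30 weeks in the KO-TRAMP libraries 17 and 18, at 18729 and 11881, and were 301 in library 16. These libraries are named below wherever they set a value.

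Of the 10 members, 3 lie close together on mouse chromosome 9 (GRCm38), all on the plus strand: Mmp13 at 7272514 to 7283331, Mmp3 at 7445822 to 7455975 and Mmp7 at 7692090 to 7699585, a span of 427072 bases. The first 2 were close to 0 in most libraries while Mmp7 was the highest member, so the promoters of these neighbours are shown, with that of Timp1 beside them as the inhibitor with the widest range. RefSeq promoter windows (GRCm38.p6, 250 bases before to 50 after the start site) were supplied for 8 of the 10 members, with 2 windows for Mmp7, of which the upstream one is used. The AP-1 motif TGANTCA, searched on both strands, is the binding sequence of Fos and Jun dimers, and the GC box GGGCGG is the binding sequence of Sp1-type factors. Printed are the 150 bases before the start site on the gene's strand, 5′ to 3′, with the AP-1 match in capitals for the metalloproteinases and the GC box, read from the other strand, in capitals for Timp1.
Mmp13 (chr9:7272364-7272513, plus strand): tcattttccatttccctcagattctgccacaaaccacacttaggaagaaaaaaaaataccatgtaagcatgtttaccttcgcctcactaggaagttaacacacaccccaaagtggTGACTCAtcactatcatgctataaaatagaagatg
Mmp3 (chr9:7445672-7445821, plus strand): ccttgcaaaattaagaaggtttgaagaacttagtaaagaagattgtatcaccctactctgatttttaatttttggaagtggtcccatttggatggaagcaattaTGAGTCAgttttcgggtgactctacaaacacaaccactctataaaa
Mmp7 (chr9:7691940-7692089, plus strand): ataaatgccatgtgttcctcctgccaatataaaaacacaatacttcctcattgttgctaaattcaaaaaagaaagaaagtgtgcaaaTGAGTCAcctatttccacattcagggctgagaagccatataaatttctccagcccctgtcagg
Timp1 (chrX:20870016-20870165, plus strand): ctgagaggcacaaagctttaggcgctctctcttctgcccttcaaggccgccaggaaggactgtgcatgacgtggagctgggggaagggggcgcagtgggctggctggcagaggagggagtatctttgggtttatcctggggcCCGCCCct

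The AP-1 match starts 35 bases before the start site in Mmp13, 46 in Mmp3 and 63 in Mmp7. The windows of Mmp14 and of the 4 inhibitors hold no match to these letters. Only exact matches were searched, so sites that differ from these letters were not looked for. Among 32817 supplied promoter windows 7.81% hold TGANTCA and 35.6% hold GGGCGG. The GC box lies in the windows of Mmp14, Timp1, Timp2 and Timp3, and in none of the 3 metalloproteinase windows printed.

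Per length, as reads per kilobase of exon and per 1e6 recovered reads (RPKM), Mmp7 had the highest mean level of the members in each group. Its mean level was 45.1 ± 42.7 RPKM (SD, n = 3) in WT-TRAMP at 10 weeks and 336 ± 47.2 in WT-TRAMP at 30 weeks, a description over tables that were normalized separately. Mmp7 encodes matrilysin, a small secreted protease of glandular epithelium that lacks the hemopexin domain of its relatives. Timp2, which inhibits metalloproteinases and also binds the MMP14 protein to help activate the MMP2 precursor, came next in each group, between 20.3 ± 7.57 RPKM in A537T-TRAMP at 10 weeks and 38.5 ± 2.28 in KO-TRAMP at 30 weeks. Timp4 followed Timp2 in each group but KO-TRAMP at 30 weeks, where Timp1 held that place at 30.7 ± 25.5 RPKM. Below them stood Timp3, Mmp2, Mmp14 and Timp1 at 1.51 to 15.1 RPKM, leaving out that Timp1 level. Mmp9 lay between 0.272 and 1.04 RPKM.

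Neighbours in this order often overlapped. In WT-TRAMP at 10 weeks the 3 highest members, Mmp7, Timp2 and Timp4, had overlapping ranges, and so did Timp3, Mmp2, Mmp14 and Timp1 from each to the next. In the 5 other groups Mmp7 stood clear of Timp2. Mmp3 and Mmp13 were lowest in 5 of the 6 groups, with mean levels of 0.0197 to 0.249 RPKM. The exception was Mmp3 in KO-TRAMP at 30 weeks, at 1.70 ± 1.19 RPKM, which overlapped Mmp9 (0.563 ± 0.323).

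**Figure D1:**
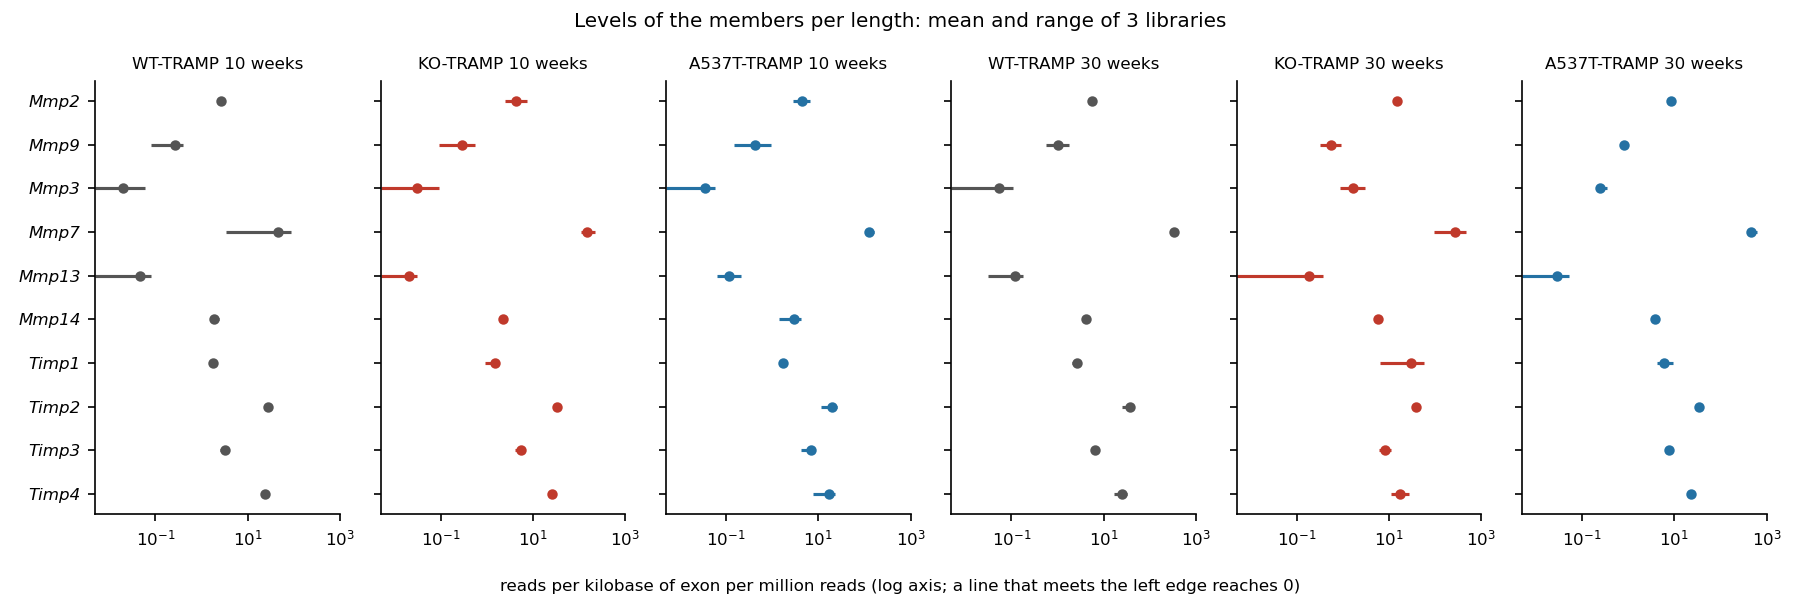
Each panel is 1 group; the horizontal axis is the level in RPKM on a log scale, points are the mean and lines the range of 3 libraries. Mmp7 is the rightmost member in each panel, and Mmp3 and Mmp13 lie at the left in all but KO-TRAMP at 30 weeks, where Mmp3 reached 3.06 RPKM.

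Summed per length, the 6 metalloproteinases took 13.8% to 62.8% of the members' RPKM in WT-TRAMP at 10 weeks and 81.9% to 85.3% in WT-TRAMP at 30 weeks. KO-TRAMP had 63.3% to 76.1% at 10 weeks, above each WT-TRAMP library, and 62.4% to 79.75% at 30 weeks, below each. A537T-TRAMP had 65.5% to 81.0% at 10 weeks, against 13.6% to 62.0% in the WT-TRAMP libraries of its table. Its 30-week range of 84.7% to 90.5% overlapped 82.1% to 85.4% in WT-TRAMP. These shares include Mmp7 and were not tested. Without Mmp7 the share was 10.4% to 16.8% in WT-TRAMP at 30 weeks and 16.6% to 23.1% in KO-TRAMP at 30 weeks. The ranges of the latter pair overlap.

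The clearest differences were in KO-TRAMP at 30 weeks. Mmp2 (gelatinase A, which cuts denatured and basement membrane collagen) rose from a mean of 222 ± 16.1 to 563 ± 71.5 normalized counts (SD, n = 3), and Mmp3, Timp1 and Mmp14 were higher in each KO-TRAMP library than in any WT-TRAMP library without passing the adjusted threshold. Mmp7, Mmp9, Timp2, Timp3 and Timp4 overlapped between the groups. Of the 9 members tested 1 passed, where 0.213% of all genes tested did. Ranges were apart for 4 of the 9, all of them higher in KO-TRAMP, where 20.2% of all genes tested had ranges apart. The same 4 had an unadjusted p under 0.05, where 13.5% of all genes did. Mmp3 was among the 9 tested only because its KO-TRAMP libraries lifted its mean above 10, so it had to differ. Its place in these counts carries no weight, and the others with ranges apart were Mmp2, Timp1 and Mmp14. Mmp13 was not tested.

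Mmp2 (chromosome 8, 92827291 to 92853420) had normalized counts of 211, 214 and 241 in the WT-TRAMP mice, and the KO-TRAMP mice, in library order, had 631, 488 and 571. The lowest KO-TRAMP library stood well above the highest WT-TRAMP library. The log2 fold change was 1.33 (SE 0.14, adjusted p = 0.0415). The call was lost with edgeR's quasi-likelihood test (1.35, adjusted p = 0.0508) and when library 10, 11, 12, 17 or 18 was left out, with fold changes of 1.25 to 1.43 over these fits and the fit without library 16. It was kept without library 16.

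Timp1 (chromosome X, 20870166 to 20874735), an inducible secreted inhibitor, had 26.9, 22.1 and 31.9 normalized counts in WT-TRAMP and 587, 61.2 and 276 in KO-TRAMP. All KO-TRAMP libraries were higher, but they were widely spread, with library 16 far above library 17. The log2 fold change was 2.97 (SE 0.79, adjusted p = 0.307). DESeq2 on recovered reads gave 3.51 (adjusted p = 3.61e-04), and over all alternatives the adjusted p ran from 2.28e-04 to 0.749. The difference was 2.25 without library 16 and 3.87 without library 17. Timp1 shares its locus with Syn1, a synapsin gene on the opposite strand, which had 1.03, 30.6 and 32.4 normalized counts in libraries 16 to 18. The counting used strand, and the part of Syn1 in the Timp1 values was not tested.

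Mmp3, stromelysin, which cuts many matrix proteins and activates other metalloproteinases, had 1, 0 and 2 reads in WT-TRAMP and 62, 23 and 22 reads in KO-TRAMP, or 1.12, 0 and 2.28 against 63.8, 16.8 and 23.0 normalized counts. The groups did not overlap. The fitted log2 fold change was 3.99 (SE 0.81, adjusted p = 0.202), and it ranged from 2.52 with a pseudocount of 5 to 4.97 with DESeq2, which called it (adjusted p = 0.00336). The gene was tested only through its KO-TRAMP libraries, so this call carries no weight of its own. As a ratio of shares of all reads, 107 against 3 reads gave 31.9 with an exact 95% interval of 10.6 to 157, which covers counting error only. Library 16 was highest for Mmp3 as it was for Timp1, and without it the mean of Mmp3 fell under the minimum of 10, so that no fit was made.

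Mmp14 (chromosome 14, 54431612 to 54445364), a membrane-anchored collagenase and an activator of the MMP2 precursor, was measured at 262, 281 and 309 in WT-TRAMP and 337, 380.5 and 409 in KO-TRAMP. The gap between the groups was small, and the log2 fold change of 0.40 (SE 0.14, adjusted p = 0.343) did not pass.

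Among the other members Mmp7 had 3499, 4782 and 4197 normalized counts in WT-TRAMP and 5839.8, 1094 and 2852 in KO-TRAMP, so that library 16 was above and libraries 17 and 18 below every control (log2 fold change −0.65, SE 0.58, adjusted p = 0.578). Without library 17 the difference was −0.016, and without library 16 it was −1.22. Timp4, an inhibitor with a narrow tissue range, followed a like pattern, with 1142, 2246 and 1818 against 1822, 707 and 955 (−0.64, SE 0.41, adjusted p = 0.466; −0.34 without library 17 and −1.02 without library 16). Libraries 17 and 18 were the pair with the high neuroendocrine sums, and the part of those cells in the result was not tested. Timp4 shares its locus with Syn2, a synapsin gene on the opposite strand. Syn2 had 30.2, 5.76 and 14.8 normalized counts in WT-TRAMP and 5.14, 565 and 357 in KO-TRAMP. The part of Syn2 in the Timp4 values was not tested. Mmp9, gelatinase B, was low and spread, at 32.5, 23.0 and 73.0 in WT-TRAMP against 38.1, 12.4 and 16.7 (−0.89, SE 0.60, adjusted p = 0.486; −0.43 without library 12). Mmp13, interstitial collagenase, had 10 reads in WT-TRAMP and 20 in KO-TRAMP, a ratio of 1.79 with an exact 95% interval of 0.799 to 4.28.

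The remaining inhibitors did not separate. Timp2 had 1092, 2092 and 1778 in WT-TRAMP and 1646, 1728 and 1615 in KO-TRAMP, all 3 inside the WT-TRAMP range (log2 fold change 0.059, SE 0.24, adjusted p = 0.908). Timp2 shares its locus with Cep295nl on the same strand, so strand does not separate their reads. Cep295nl had 47.0, 85.4 and 88.9 normalized counts in WT-TRAMP and 70.0, 46.6 and 52.2 in KO-TRAMP. Its part in the Timp2 values was not tested. Timp3, the inhibitor that binds to the matrix, had 673, 568 and 594 against 559.7, 976 and 725 (0.27, SE 0.21, adjusted p = 0.546), with library 16 below and libraries 17 and 18 above the WT-TRAMP range. Without library 17 the difference was 0.062.

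**Figure D2:**
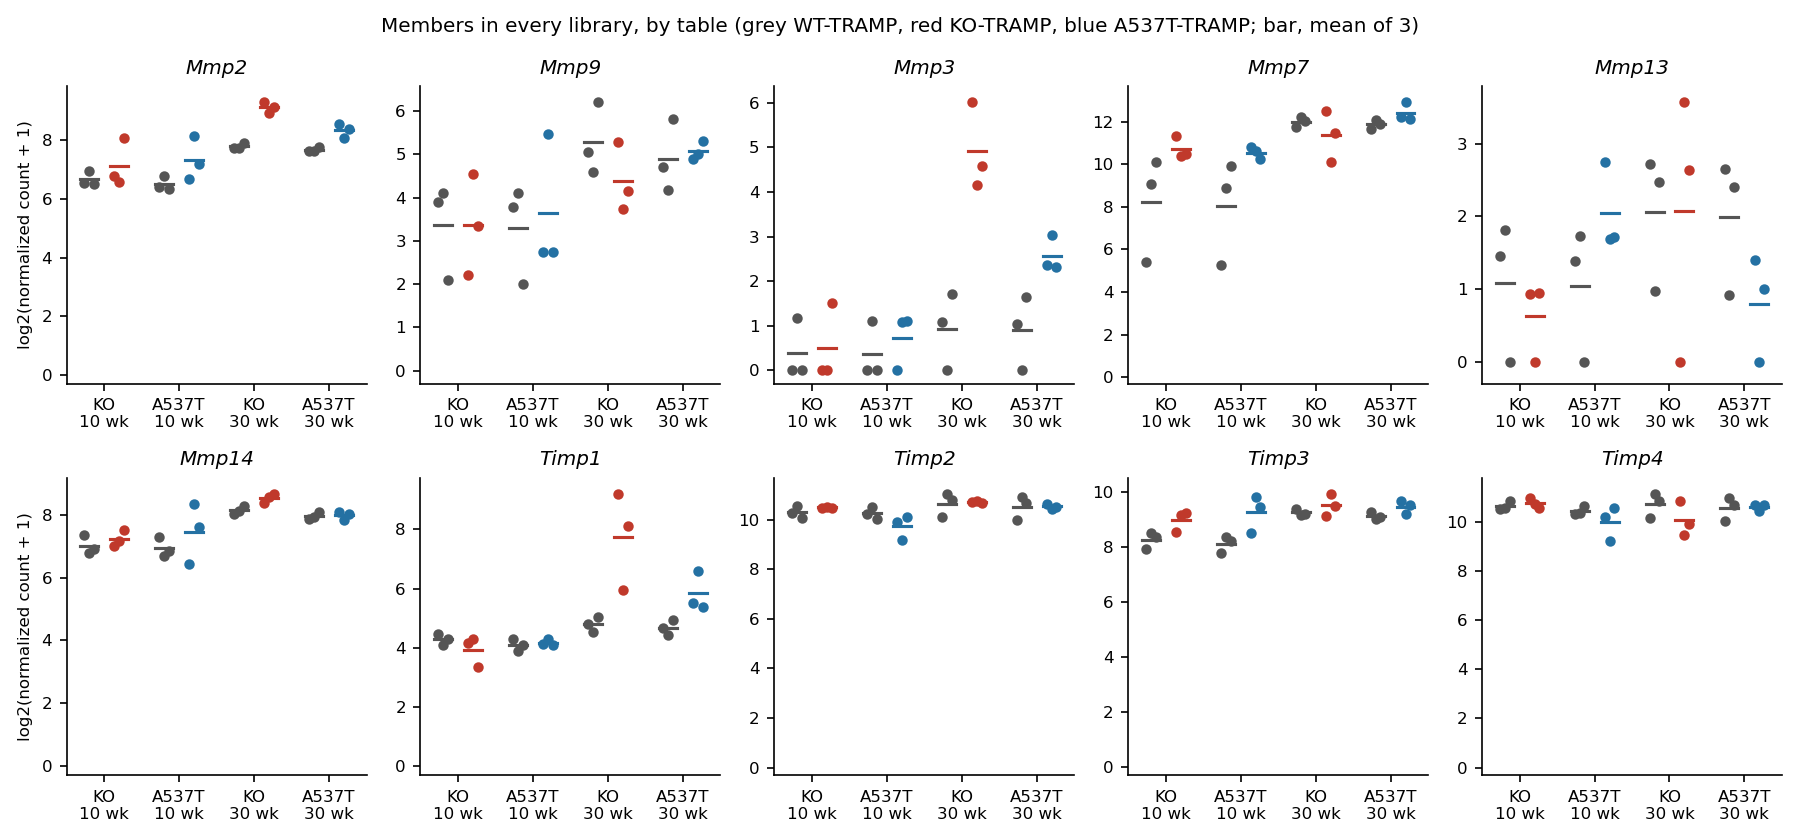
Each panel is 1 member; the vertical axis is log2(normalized count + 1), points are libraries in header order, bars are means of 3, and each pair of columns is a mutant line beside the WT-TRAMP libraries of its table (grey). Mmp2, Mmp3, Timp1 and Mmp14 in KO-TRAMP at 30 weeks lie above all their WT-TRAMP libraries, with Mmp2 at 488 to 631 normalized counts against 211 to 241.

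Markers of other cells moved in the same comparison. The summed fibroblast markers ran from 3285 to 3646 in WT-TRAMP and from 9794 to 11236 in KO-TRAMP, with 2 of 10 called (Col1a1 and Col1a2, which are also in the substrate list below) and none at 0. The macrophage sum ran from 2131 to 2418 against 4849 to 5629, with 2 of 10 called (Lyz2 and C1qb) and none at 0. The endothelial sum ran from 642 to 829 against 1038 to 3882, with none of 10 called. Neutrophils, a known source of Mmp9, were scarce: the sum of 10 markers was 10.3 to 18.2 against 24.1 to 44.2, and 5 to 9 of the 10 were at 0, Elane and Mpo in each library. The luminal epithelium sum was lower, at 26366 to 36686 against 38384 to 44994, with 7 of 10 markers lower at an unadjusted p under 0.05, 1 higher and none called. Of 4 B cell markers tested 1 was called lower (Igkc), with sums of 309 to 616 against 1651 to 1671. Of 9 adipose markers 1 was called lower (Ucp1), with sums of 391 to 846 against 782 to 1889, and of 9 skeletal muscle markers 2 were called higher (Myh1 and Myh4), with sums of 558 to 1077 against 397 to 605. In these bulk samples, more cells of a type and more RNA per cell cannot be told apart, and the part of these cells in the results for Mmp2, Mmp3, Mmp14 and Timp1 was not tested.

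At 30 weeks the A537T-TRAMP libraries differed from WT-TRAMP by less. None of the 8 members tested passed, nor did any gene in the fit (0% of genes tested), while limma gave an unadjusted p under 0.05 for 3 members (7.21% of genes tested), edgeR called none and DESeq2 called Mmp2. Mmp2, Mmp7 and Timp1 were higher in each A537T-TRAMP library than in any WT-TRAMP library, which is 3 of 8 members where 13.4% of genes tested did not overlap. All 8 estimates were above 0 in this fit, with a median of 0.25 against 0.00 over all genes tested, and those of Mmp14, Timp2 and Timp4 turned below 0 with scaling to the library total.

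Mmp2 had 197, 197 and 221 normalized counts in WT-TRAMP libraries 10 to 12 and 381, 272 and 338 in A537T-TRAMP libraries 13 to 15. The log2 fold change was 0.67 (SE 0.15, adjusted p = 0.436), and DESeq2 gave an adjusted p of 0.0465, in a range over the alternatives of 0.00731 (array weights) to 0.999. Timp1 had 24.2, 20.6 and 29.9 against 45.1, 95.4 and 40.9, with library 14 highest (1.15, SE 0.38, adjusted p = 0.666). Mmp7 had 3239, 4392 and 3855 against 4849, 7669.8 and 4507, again highest in library 14 (0.54, SE 0.22, adjusted p = 0.684). Without library 14 the differences were 0.78 for Timp1 and 0.30 for Mmp7. In each of these genes the groups were apart, but by less than the adjusted test asks for.

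Mmp3 had 3 reads in WT-TRAMP and 15 in A537T-TRAMP, a ratio of 4.70 with an exact 95% interval of 1.33 to 25.3. This interval pools the reads of a group and covers counting error only, not the spread between mice. The highest library had 7.15 normalized counts. Timp3 was 617, 517 and 539.8 against 814, 585 and 729 (0.34, SE 0.15, adjusted p = 0.698), overlapping through library 14. Mmp9, Mmp14, Timp2 and Timp4 had log2 fold changes of 0.17, 0.024, 0.021 and 0.050. Mmp13 had 10 reads against 3, a ratio of 0.282 with an interval of 0.0499 to 1.09. The fibroblast sum was 3097 to 3444 in WT-TRAMP and 4302 to 8142 in A537T-TRAMP, highest in library 13, where Mmp2 was highest too, and its part in the Mmp2 difference was not tested.

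**Figure D3:**
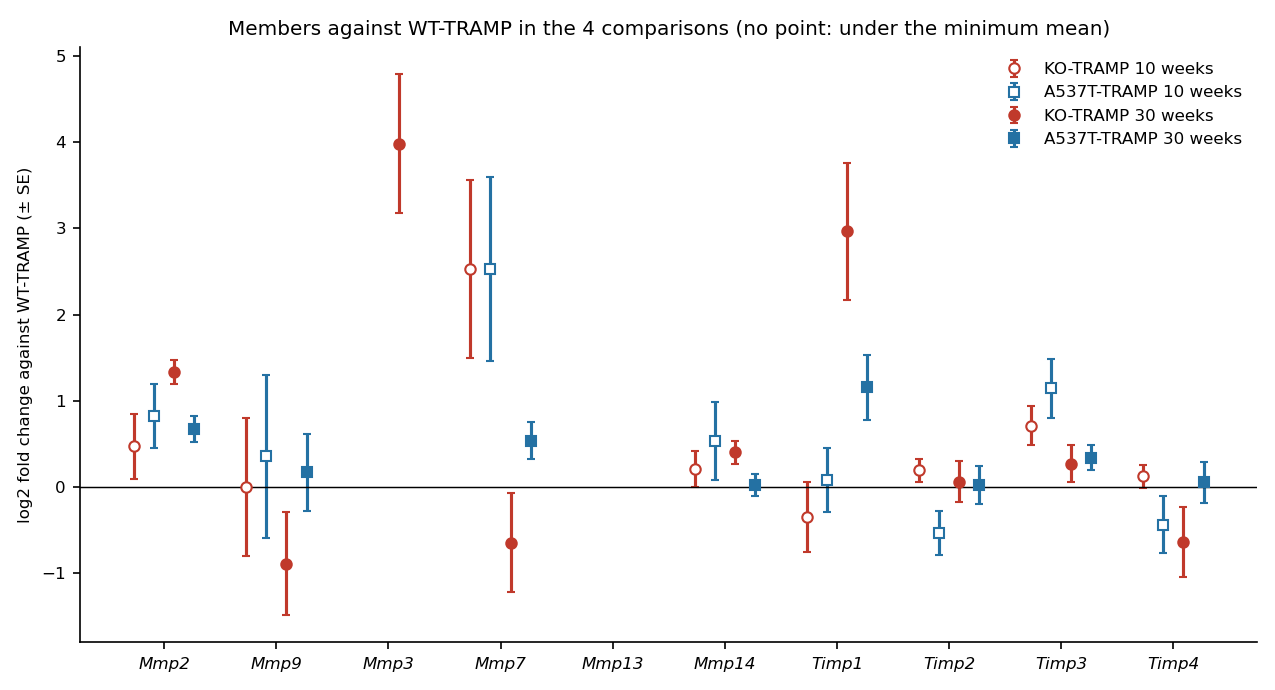
The vertical axis is the log2 fold change against WT-TRAMP and bars are its standard error; colours are the lines, open symbols 10 weeks and filled symbols 30 weeks, and a missing point is a member under the minimum mean. Mmp2 in KO-TRAMP at 30 weeks, at 1.33, has the smallest error for its size, while Mmp7 at 10 weeks and Timp1 in KO-TRAMP at 30 weeks have errors of 0.79 or more.

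At 10 weeks no member passed in either line. In KO-TRAMP none of 8 members tested was called, where 0.0129% of genes tested were, and edgeR and DESeq2 called none. Mmp7 and Timp3 were the 2 members whose groups did not overlap, both higher, where 12.0% of genes tested did not overlap, and the same 2 had an unadjusted p under 0.05, where 6.64% of genes did. In A537T-TRAMP the picture was alike: 0 of 8 called (0.00648% of genes tested; none by edgeR or DESeq2), and again Mmp7 and Timp3 did not overlap (13.4%) and had an unadjusted p under 0.05 (7.89%). The WT-TRAMP libraries are the same in both, so these are not separate sightings. The seminal vesicle sum was also higher in each mutant library than in any WT-TRAMP library. Its part in the Mmp7 and Timp3 differences was not tested.

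Mmp7 varied widely among the controls. It had 42.0, 539 and 1114 normalized counts in WT-TRAMP. The KO-TRAMP mice had 2544, 1332 and 1455, a log2 fold change of 2.53 (SE 1.03, adjusted p = 0.737). Against A537T-TRAMP libraries 4 to 6 it had 37.0, 474 and 978 against 1790.5, 1559 and 1209.7 (2.53, SE 1.07, adjusted p = 0.600). Library 1, far below the other controls, set much of both differences: without it they were 1.13 and 1.14.

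The matrix-bound inhibitor Timp3 had smaller differences with smaller errors. It had 239.6, 366 and 327 normalized counts in WT-TRAMP and 369, 571 and 596 in KO-TRAMP, with library 7 just above the highest control (log2 fold change 0.71, SE 0.23, adjusted p = 0.716). In A537T-TRAMP it had 361, 892 and 706 against 216, 330.5 and 294 (1.14, SE 0.34, adjusted p = 0.600), and without library 5 the difference was 0.87. Timp3 shares its locus on chromosome 10 with Syn3 on the opposite strand, which overlapped between the groups in both tables, at 127 to 206 in WT-TRAMP and 153 to 220.3 in KO-TRAMP, and at 114 to 184 and 106 to 193 in A537T-TRAMP's table.

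Smooth muscle markers moved with Timp3. Their summed normalized count ran from 5496 to 9177 in WT-TRAMP and from 9753 to 15965 in KO-TRAMP, and from 4872 to 8149 against 11990 to 36487 in A537T-TRAMP. All 10 markers were above 0 in every library; 8 of 10 in KO-TRAMP and 10 of 10 in A537T-TRAMP had an unadjusted p under 0.05, all higher, and none passed the adjusted test. The order of libraries was close: library 7 was lowest and libraries 8 and 9 high for both in KO-TRAMP, and library 5 was highest for both in A537T-TRAMP. The part of smooth muscle in the Timp3 difference was not tested.

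In A537T-TRAMP at 10 weeks library 5 also stood apart for Mmp2, Mmp9, Mmp14, Timp2 and Timp4. Mmp2 was 101, 282 and 146 there against 83.5, 111 and 80.8 (0.82, SE 0.37, adjusted p = 0.600; 0.41 without library 5). Mmp14 was 86.3, 326 and 196 against 155, 102 and 114 (0.53, SE 0.46, adjusted p = 0.695; 0.093 without library 5). Mmp9 was 5.70, 43.1 and 5.73 against 12.9, 16.1 and 3.03 (0.35, SE 0.95, adjusted p = 0.909), and no fit without library 5 was made. The endothelial sum was 339 to 796 against 240 to 299 and the fibroblast sum 3571 to 4272 against 2320 to 3264, with none of 10 markers called in either, and their part in the values of Mmp2, Mmp14 and Timp3 was not tested. In the same library 5 the inhibitors Timp2 and Timp4 were at their lowest, at 580.2 and 587 normalized counts against at least 1034 and 1266 in WT-TRAMP. Timp2 had a log2 fold change of −0.54 (SE 0.25, adjusted p = 0.600) with this library and −0.27 without it, and Timp4 of −0.44 (SE 0.33, adjusted p = 0.655) with it and −0.045 without it. Timp1 did not separate, at 16.3, 18.8 and 16.1 against 18.5, 13.8 and 16.2 (0.078, SE 0.38, adjusted p = 0.950).

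In KO-TRAMP at 10 weeks the ranges of the other members overlapped those of the controls. Mmp2 was 109, 94.0 and 271 against 93.6, 122 and 90.3 (0.47, SE 0.38, adjusted p = 0.856), and without library 9, which held the seminal vesicle sum of 180184, the difference was −0.000261. Timp2 was tight at 1411, 1468 and 1424, inside the WT-TRAMP range of 1068 to 1504 (0.19, SE 0.13, adjusted p = 0.830). Mmp14, Mmp9, Timp1 and Timp4 had log2 fold changes of 0.21, −0.00496, −0.35 and 0.12, the second of which turned above 0 with TMM or library-total scaling. Mmp3 had 1 to 2 reads in all per group at 10 weeks, and no fold is given. Mmp13 had 4 reads in WT-TRAMP, 2 in KO-TRAMP and 11 in A537T-TRAMP, ratios of 0.461 (exact 95% interval 0.0417 to 3.22) and 2.71 (0.802 to 11.7), so that a difference was not detectable at this depth.

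Whether a line's effect changed between the ages was tested as an interaction over the 12 libraries of its tables. None of 8 members passed for KO-TRAMP (0% of genes tested; edgeR called no member), and 2 had an unadjusted p under 0.05, where 13.1% of genes did. These were Timp1, whose KO-TRAMP effect was higher at 30 weeks by 3.32 (SE 0.91, adjusted p = 0.255), and Mmp7, whose effect was lower by −3.17 (SE 1.38, adjusted p = 0.367; −1.78 without library 1 and −4.13 without library 3). Timp1 passed without library 16 (2.60, adjusted p = 0.0468) and with array weights (3.60, adjusted p = 7.05e-04). Mmp2, the member called at 30 weeks, had a change of effect of 0.86 (SE 0.46, adjusted p = 0.427), so the difference between the ages was not shown for it. For A537T-TRAMP none of 8 passed (0% of genes tested; edgeR called no member), and Timp1, at 1.08 (SE 0.49, adjusted p = 0.721; 0.70 without library 14), was the single member with an unadjusted p under 0.05, where 6.36% of genes had one.

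Other genes of matrix proteolysis were read from 4 lists, also chosen with earlier results of these data known. Of 17 other metalloproteinases 9 could be tested in KO-TRAMP at 30 weeks, and none was called, with a median log2 fold change of 0.61 against 0.01 over all genes tested. Of these, 5 estimates were higher and 4 lower, from −0.85 to 2.66, and no lower one had an unadjusted p under 0.05 (limma). Mmp19 had 67.96 ± 7.25 normalized counts against 13.1 ± 5.56 (2.38, SE 0.41, adjusted p = 0.134), and Mmp23 55.1 ± 15.7 against 20.2 ± 2.76 (1.37, SE 0.33, adjusted p = 0.261). Of 17 activators and other regulators 14 were tested and none was called. The lowest adjusted p there were those of Plat (tissue plasminogen activator) at 197 ± 30.8 against 63.6 ± 11.4 (1.62, SE 0.22, adjusted p = 0.0687) and of the lysosomal protease Ctsb at 2784 ± 178 against 1767 ± 53.2 (0.65, SE 0.09, adjusted p = 0.0793). On the lower side stood Plau, at 128 to 192 against 28 to 2458, where the WT-TRAMP libraries span the whole range.

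Of the 14 ADAM and ADAMTS proteases, all tested, 1 was called: Adamts2, which trims the ends of fibrillar procollagens, at 197 ± 22.6 normalized counts against 53.5 ± 7.57 (1.87, SE 0.20, adjusted p = 0.0415). In that list 9 estimates were higher and 5 lower, from −0.91 to 1.87. Of 15 matrix substrates 8 rose and none fell, with a median of 1.33. The 8 were the fibrillar collagens Col1a1, Col1a2 and Col3a1, the basement membrane collagen Col4a2, fibronectin Fn1, and the matricellular genes Sparc, Thbs2 and Tnc. Their log2 fold changes ran from 1.04 (Fn1) to 3.41 (Thbs2), and Col3a1 had 10164 ± 3116 normalized counts against 1523 ± 258. Of the substrates 14 of 15 did not overlap, all higher. Over all genes tested in this comparison 0.213% were called and 20.2% did not overlap. Since both lists were chosen with earlier results known, these counts do not test them.

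In A537T-TRAMP at 30 weeks no gene of the 4 lists was called, and the substrates had a median of 0.70, with Tnc at 1.30 (SE 0.15, adjusted p = 0.137) and Col1a1 at 0.95 (SE 0.11, adjusted p = 0.137). At 10 weeks none of the lists held a called gene in either line, and the medians of the substrates were 0.17 in KO-TRAMP and 0.50 in A537T-TRAMP. Mmp28, epilysin, had the smallest unadjusted p of the other metalloproteinases in both lines, at 2.20 (SE 0.75, adjusted p = 0.716) and 3.61 (SE 0.80, adjusted p = 0.600). The protease inhibitor Serpine2 had 614 ± 655 against 52.2 ± 24.6 in KO-TRAMP (2.94, SE 0.80, adjusted p = 0.710) and 3692 ± 5543 against 46.0 ± 21.6 in A537T-TRAMP (4.61, SE 1.35, adjusted p = 0.600), a spread as large as the mean. Mmp15 was lower in each A537T-TRAMP library, at 844 ± 166 against 1252 ± 55.8 (−0.59, SE 0.16, adjusted p = 0.600).

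**Figure D4:**
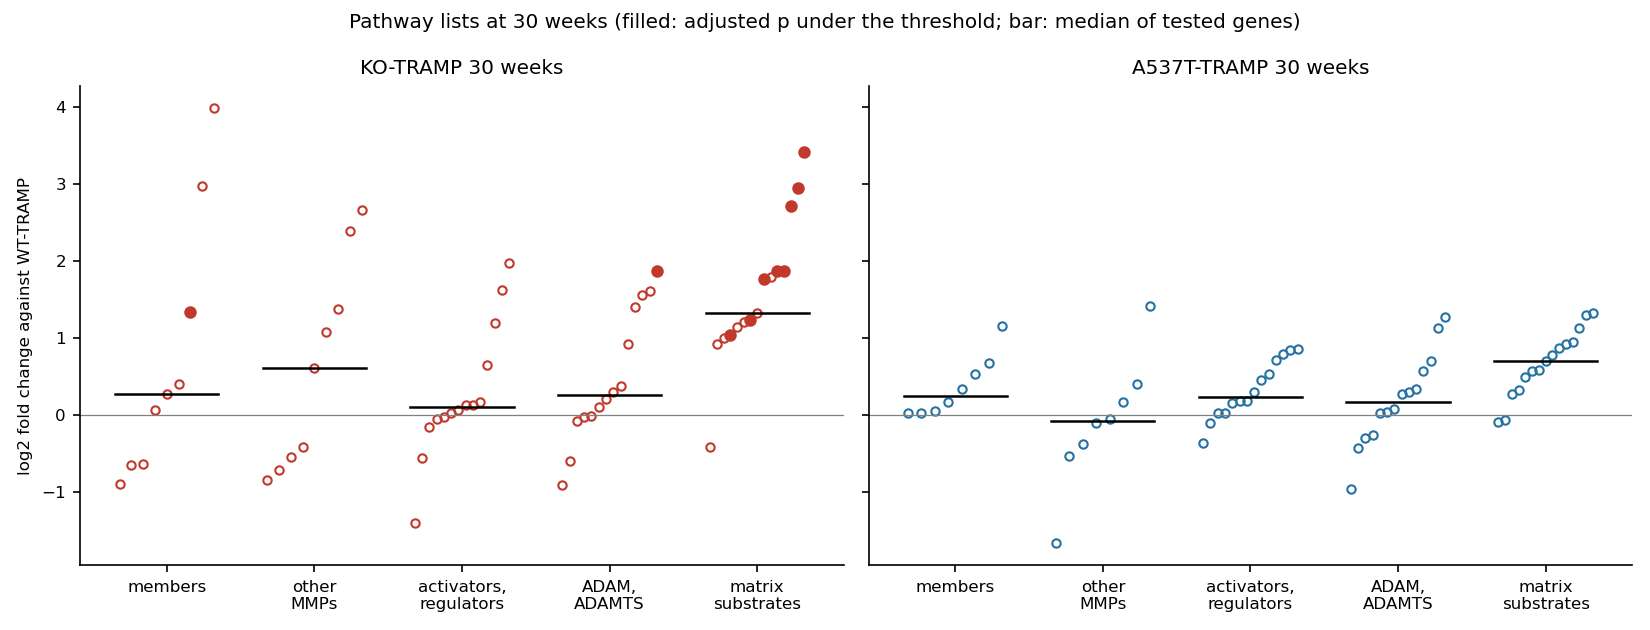
The vertical axis is the log2 fold change against WT-TRAMP at 30 weeks; points are tested genes of each list, filled where the adjusted p is under 0.05, and bars are the medians. In KO-TRAMP the filled points are Mmp2, Adamts2 and 8 of 15 matrix substrates, and A537T-TRAMP has none.

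Across all 18 libraries the members fell into patterns that differed from gene to gene. These correlations are of log2(CPM + 1), where CPM is a read count scaled to the library's total, are a description, and rest on libraries that share groups, ages and tissue make-up. Mmp2 and Mmp14 were the pair most alike (Pearson r = 0.88), followed by Mmp14 and Timp3 (0.76) and by Mmp2 and Timp1 (0.75). With deviations from group means in place of the values, r was 0.63, 0.59 and −0.098 in that order. Within groups, then, Mmp2 and Timp1 were not alike. Timp4 ran against Timp3 (−0.44) and Mmp14 (−0.37), and its highest r with a member was with Timp2 (0.56). The highest r of Mmp9 with a member was 0.59, with Mmp14.

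Among 12681 genes the 3 most like each member were taken. For Mmp2 they were Colec12 (r = 0.972), Aebp1 and Igfbp7, and for Timp1 Serpina3n (0.939), Lox and Tnc. Mmp7 had Fbp1 (0.947), Pdlim4 and Fhl2, and Timp3 had Wwtr1 (0.964), Itga7 and Bnc2. For Timp4 they were Azgp1 (0.947), Dnase1l2 and Cyp4v3, for Mmp14 Sestd1 (0.923), Zfp36l2 and Cd38, for Timp2 Add1 (0.895), Rab24 and Gosr1, and for Mmp9 Eda2r (0.832), Arhgef12 and Pvt1. Taking the deviations from group means in place of the values left the r of Timp3 with Wwtr1 at 0.929 and that of Timp4 with Azgp1 at 0.953, while that of Timp1 with Serpina3n was 0.686.

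Set against marker sums over the same 18 libraries, Timp3 followed smooth muscle (r = 0.91), endothelium (0.81) and neuroendocrine markers (0.73). Mmp2 followed fibroblasts (0.85), endothelium (0.85) and macrophages (0.82). Timp1 was closest to macrophages (0.80). Luminal epithelium ran against Mmp14 (−0.92), Mmp2 (−0.82), Timp3 (−0.77), Mmp9 (−0.70), Mmp7 (−0.61), Timp1 (−0.55) and, weakly, Timp2 (−0.13). Timp4 went the other way (0.39). Mmp9 had r = 0.34 with the neutrophil sum and 0.61 with the B cell sum.

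**Figure D5:**
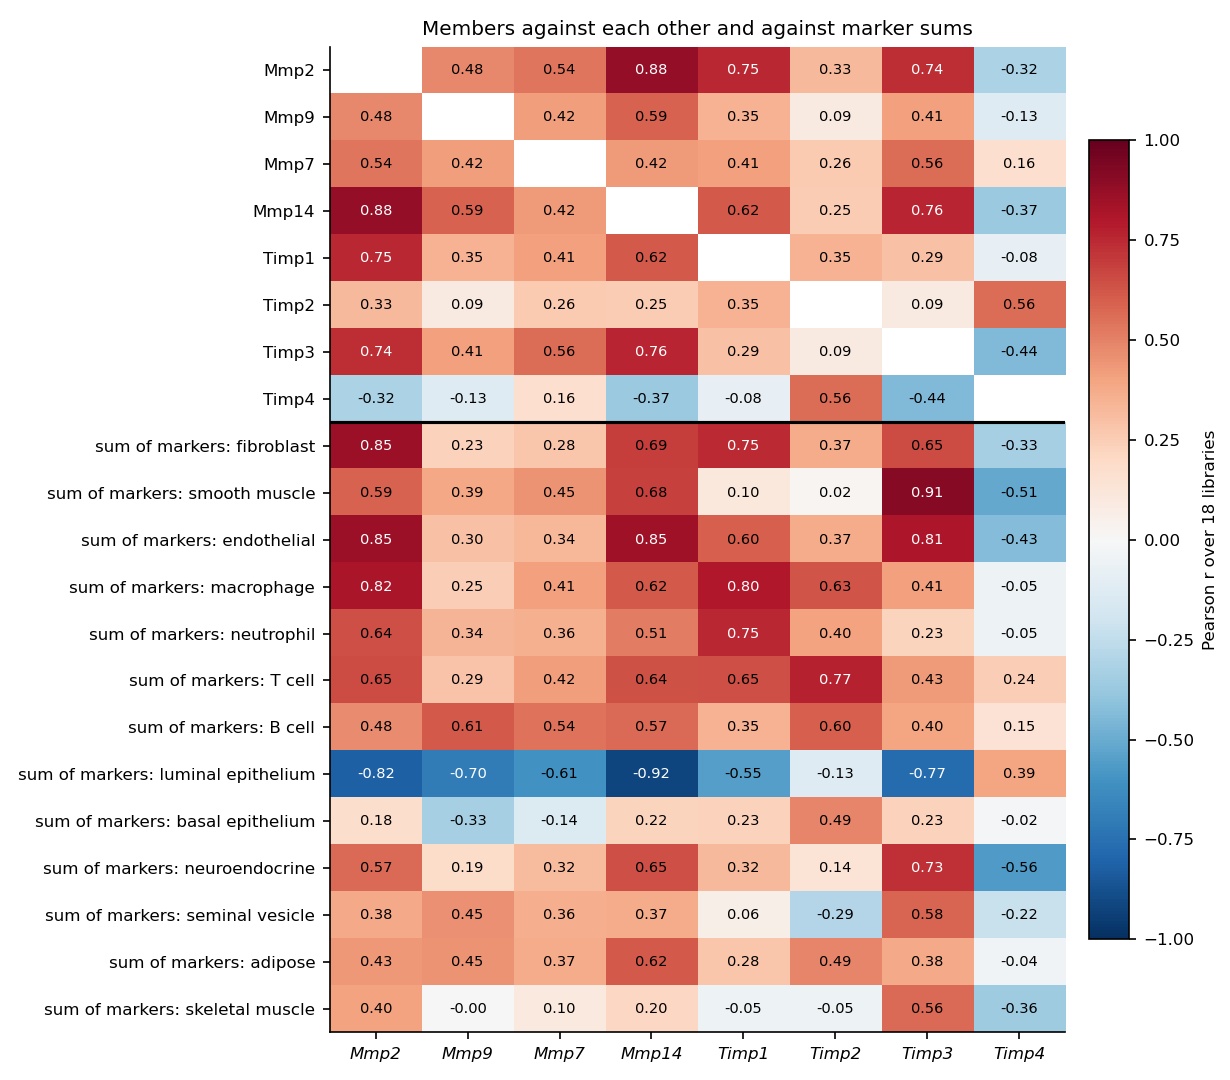
Cells give Pearson r over 18 libraries of log2(CPM + 1), for pairs of members above the line and for members against summed markers below it; Mmp3 and Mmp13 are left out as too low. Mmp2 with Mmp14 (0.88), Timp3 with smooth muscle (0.91) and Mmp14 against luminal epithelium (−0.92) are the strongest.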

How the data were processed

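RNA from 18 libraries was measured by strand-specific RNA-seq. Per the labels and methods, the authors trimmed reads with Trim Galore 0.4.1 and cutadapt 1.18, aligned them to GRCm38.p6 with STAR 2.7.3a, quantified genes with Salmon using strand, and analysed them with DESeq2 1.26. They deposited 4 tables of normalized counts, a signal equal to an estimated read count divided by a size factor per library and set within each table, and 4 tables of their own comparisons (fold changes and their errors), not used here. Dividing each column by its smallest step gave whole reads for 100% of values (tolerance 0.001), and these recovered reads were used for count tests; in 2 columns the step was close to 1, at 0.997 and 1.01. Columns carry a library number and no mouse: those in both tables of an age were taken as WT-TRAMP. The WT-TRAMP reads of 1 library differ between its tables, with 30.9% to 37.6% of genes identical. Of the members, 2 to 3 were identical per library. The largest difference of a member was 20.8%, for Mmp9 in library 11 (24 reads against 19). Depth was 9380174 to 14830104 reads per library.

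Each line was compared with WT-TRAMP by limma 3.58.1 (trend, R 4.3.3) on the deposited values after adding 1 and taking log2, for genes whose mean reached 10, with two-sided p-values, Benjamini-Hochberg adjustment over all genes tested and a threshold of 0.05. The pseudocount understates the change of low genes. Fits were also run on simulated counts, with changes placed only in well-expressed genes, so that run does not cover members with low counts. Alternatives were pseudocounts of 0.5 and 5, no minimum or one of 50, TMM and library-total scaling, edgeR 4.0.16, DESeq2 1.42.0, array weights and leaving out each library. Read ratios have exact intervals, which pool the reads of a group and cover counting error only. Of the listed genes, the text names all members, Elac2, each gene past the threshold and, where a list is described, up to 2 per direction with the smallest unadjusted p, and 3 like genes per member. Members and lists were chosen with earlier results of these data known. Coordinates are GRCm38 positions of a GENCODE annotation, and symbols came with it or with the supplied gene table for 55107 of 55469 IDs.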

Additional observations from a re-analysis of the deposited data

Results flagged for a closer look

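Timp2 lay on opposite sides of the WT-TRAMP mean in the 2 lines at 10 weeks. Its 3 KO-TRAMP libraries lay 0.17 to 0.22 above that mean on the log2(normalized count + 1) scale. Its 3 A537T-TRAMP libraries lay below it, at −1.07 to −0.17. All KO-TRAMP libraries were inside the WT-TRAMP range of 1068 to 1504 normalized counts. A537T-TRAMP library 6 (1085) was inside its WT-TRAMP range of 1034 to 1465, and libraries 4 and 5 were below it. The mean effects differed by 0.726. The difference itself was not tested, since the lines are in tables normalized separately and share their 3 WT-TRAMP libraries. Neither effect passed alone. The part of Cep295nl, which lies on the same strand at the Timp2 locus, was not tested. The lowest A537T-TRAMP value is that of library 5, which held the highest seminal vesicle sum. Without that library the A537T-TRAMP log2 fold change was −0.27.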

How the results depend on the processing

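No paired analysis was possible because the columns carry library numbers and no replicate number, so the replicate block was not run. The change of effect was not refitted with TMM, library-total scaling or DESeq2. Array weights stopped before convergence in both 30-week fits and both changes of effect. Scalings moved the median of all genes by under 0.1. Apart from leaving out libraries, 347 values kept their direction and side of the threshold, 15 newly passed, 1 was lost and 19 turned in sign. The cause was not tested.

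Calls among all genes were, for KO-TRAMP at 10 weeks, 2 as reported, 0 with a minimum mean of 50 or edgeR, 83 with DESeq2 and 1 to 9 leaving out a library. For A537T-TRAMP at 10 weeks they were 1, then 0 with a pseudocount of 0.5, a minimum of 50 or edgeR, 148 with DESeq2, 4 with array weights and 0 to 65 leaving out a library. For KO-TRAMP at 30 weeks they were 36, then 15 with edgeR, 805 with DESeq2, 10748 with array weights and 0 to 3064. For A537T-TRAMP at 30 weeks they were 0, then 166 with DESeq2, 3388 with array weights and 0 to 145. For the change of effect they were 0 in KO-TRAMP, then 1 with a pseudocount of 5 or no minimum, 5188 with array weights and 0 to 1944, and 0 in A537T-TRAMP, then 1645 with array weights and 0 to 20. Members called in KO-TRAMP at 30 weeks were 1, then 0 with edgeR, 3 with DESeq2, 8 with array weights and 0 to 1 leaving out a library. In A537T-TRAMP at 30 weeks they were 0, then 1 with DESeq2 and 2 with array weights, and for the KO-TRAMP change 0, then 3 with array weights and 0 to 1.

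Mmp9 in KO-TRAMP at 10 weeks turned to 0.000836 (pseudocount 5), 0.00274 (TMM), 0.0481 (library total), 0.0753 (edgeR) and 0.0795 (DESeq2). Array weights turned Mmp9 in A537T-TRAMP to −0.40 at 10 weeks and −0.35 at 30 weeks, with a change of effect of 0.039. Timp2 in KO-TRAMP at 30 weeks turned to −0.00155 (DESeq2) and −0.070 (array weights). In A537T-TRAMP at 30 weeks Mmp14 turned to −0.036 (library total) and −0.024 (array weights), Timp2 to −0.040 (library total), −0.034 (edgeR), −0.033 (DESeq2) and −0.095 (array weights), and Timp4 to −0.010 (library total), −0.00466 (edgeR) and −0.00342 (DESeq2). Leaving out a library gave ranges across 0 for Mmp2 (−0.000261 to 0.76) and Mmp9 (−0.64 to 0.58) in KO-TRAMP at 10 weeks, Mmp9 (−0.29 to 0.81) and Timp1 (−0.023 to 0.17) in A537T-TRAMP at 10 weeks, Timp2 in KO-TRAMP at 30 weeks (−0.21 to 0.25), Mmp9 (−0.20 to 0.62), Mmp14 (−0.029 to 0.10), Timp2 (−0.25 to 0.21) and Timp4 (−0.22 to 0.26) in A537T-TRAMP at 30 weeks, and the changes of effect of Timp2 in KO-TRAMP (−0.41 to 0.064) and of Mmp2 (−0.48 to 0.26) and Mmp9 (−0.64 to 0.72) in A537T-TRAMP. Depth limits Mmp3 and Mmp13 most.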
